A study of Mus musculus with 144 samples.

Results

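Chemokines, interleukins and their receptors form the signalling set described here. Members were chosen by gene symbol: names beginning with Ccl, Cxcl, Ccr, Cxcr or Il, a number and a usual ending, with 1 gene left out by the rule. Of 24421 gene symbols in the tables, 107 matched, and 60 of them reached a value of at least 10 in 3 libraries of a table. These 60 are 21 of 36 matching chemokines, 9 of 15 chemokine receptors, 11 of 30 interleukins, 18 of 25 interleukin receptors and the interleukin-1 receptor antagonist Il1rn. A member could pass on high values in 1 group alone, so the 60 are not the whole family, and 47 matching genes, among them Il2, Il4, Il5, Il17a and Ccr7, passed in no table. In ad libitum liver 38 members passed, in reverse-phase-fed liver 47, in endothelial cells 42 and in Kupffer cells 46, with 29 in all 4 tables.

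Chemokines are small secreted proteins that bind G-protein-coupled receptors and draw leukocytes along a gradient. Interleukins act through receptors that signal mainly by JAK kinases and STAT factors or, in the interleukin-1 family and for interleukin-17, by adaptor proteins that lead to NF-kappaB. In the liver, hepatocytes, sinusoidal endothelial cells, stellate cells and Kupffer cells (the resident macrophages) all make or sense such signals. REV-ERBα and REV-ERBβ are nuclear receptors that repress transcription within the circadian clock.

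The mice were C57BL/6J males fed normal chow. Controls are labelled WT, the others REV-ERB a/b double knockout, and the series text places the loss in adult hepatocytes. Column names in the tables read GFP for controls and CRE for knockouts; what these names stand for is not given in the sources used here, and any effect of it cannot be told apart from that of the genotype. Ages are not given in the labels. Whole liver was taken at zeitgeber time (ZT, hours after lights on) 1, 4, 7, 10, 13, 16, 19 and 22, under ad libitum or under reverse-phase feeding, and endothelial and Kupffer cells were isolated at ZT 4, 10, 16 and 22, with 3 libraries in each of 48 groups. Nothing in the labels ties a library to a single mouse, and the p-values therefore reflect variation among libraries, which may be technical.

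In liver, total counts were 4567612 to 10364901 per ad libitum library and 13117814 to 26191933 per library with reversed feeding; the cell tables were deposited after normalisation and their depth is unknown. Nr1d1 and Nr1d2, which encode the targeted receptors, were counted over the whole transcript, which does not check a deleted part: ad libitum, Nr1d1 ran from 1.37 to 169 normalised CPM (counts scaled to a common library total), with a median of 15.7, in control and from 19.1 to 175 (median 47.7) in knockout liver. Endothelial markers summed to 72239 to 98996 signal units in endothelial and 8099 to 13905 in Kupffer libraries, and Kupffer markers to 3994 to 18043 and 121394 to 142151. Hepatocyte markers varied widely in both, from 8333 to 123514 in endothelial and from 5868 to 72913 in Kupffer libraries, so the highest hepatocyte sum in the endothelial table lay above all its endothelial sums. They moved together in the 24 same-labelled pairs of endothelial and Kupffer libraries (Pearson r = 0.92 of log2 sums, a description), so the 2 cell tables are not treated as separate evidence. In all, 8 libraries stood apart, beyond 3 median absolute deviations in the slope of expression on transcript length or in their spread around their group, or, in liver, with over 5% of values on the ribosomal gene Rn45s; 4 of them are Kupffer libraries at ZT 4.

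The promoters of Cxcl12 and Il17rb are printed because, of the members that differed by genotype in both liver tables, these had the smallest p-values ad libitum, and that of Cxcl10, chosen after its matches were seen, because it rose in both. Each runs from 250 bases before to 50 bases after the gene's start, 5′ to 3′ on the gene's strand, from RefSeq on GRCm38.p6. Capitals mark matches to an NF-kappaB site (GGGA, any 4 bases, CC) and to an interferon response element (GAAA, any 2 bases, GAAA), each read on both strands. Cxcl12 lies at chr6:117168285-117168584 (plus strand), Il17rb at chr14:30008847-30009146 (minus strand) and Cxcl10 at chr5:92348840-92349139 (minus strand).
Cxcl12: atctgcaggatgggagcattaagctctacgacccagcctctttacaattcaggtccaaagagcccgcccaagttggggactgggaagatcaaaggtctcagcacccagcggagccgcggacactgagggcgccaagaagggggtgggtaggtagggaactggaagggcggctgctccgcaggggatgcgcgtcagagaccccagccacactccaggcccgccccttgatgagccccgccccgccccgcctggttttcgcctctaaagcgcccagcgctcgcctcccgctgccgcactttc
Il17rb: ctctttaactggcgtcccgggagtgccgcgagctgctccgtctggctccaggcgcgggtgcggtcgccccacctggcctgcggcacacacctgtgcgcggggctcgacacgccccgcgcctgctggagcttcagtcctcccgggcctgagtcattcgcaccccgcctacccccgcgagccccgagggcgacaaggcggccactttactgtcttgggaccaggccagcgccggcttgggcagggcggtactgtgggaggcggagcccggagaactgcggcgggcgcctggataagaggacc
Cxcl10: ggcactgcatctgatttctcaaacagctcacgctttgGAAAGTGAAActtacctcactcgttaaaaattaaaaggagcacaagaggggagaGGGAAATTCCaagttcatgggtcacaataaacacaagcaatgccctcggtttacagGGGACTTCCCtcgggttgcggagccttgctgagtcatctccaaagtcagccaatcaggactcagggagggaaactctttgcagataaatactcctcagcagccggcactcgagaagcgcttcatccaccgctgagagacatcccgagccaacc
Of the 60 members, 41 had a promoter in that table. The NF-kappaB pattern was in 18 of these 41 and in 20.5% of all 27025 promoters. In Cxcl10 it begins 159 and 103 bases before the start, and the interferon element 213 bases before it, and that element was in 2 of the 41 members (Cxcl10 and Cxcl14) and in 3.49% of all promoters. The hexamer AGGTCA, bound by REV-ERB and other nuclear receptors, was in 11 of 41 members and 16.04% of all. The longer REV-ERB and ROR element (AANT, any base, GGTCA), which overlaps it, was in 0 of 41 and 0.622% of all. CACGTG (E-box) was found in Il6ra, TTANNTAA (D-box) in Il18, and TTCNNNGAA (STAT site) in Cxcl14 and Il7r, against 7.24%, 6.08% and 8.47% of all promoters. None of these patterns is in the Cxcl12 or Il17rb window. A match is a match of letters and not a shown binding site.

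The first question is where the members are expressed. As CPM per kilobase of transcript, without TMM scaling and with the cell signal scaled to CPM in the same way, whole liver was led by Cxcl12, the homeostatic ligand of Cxcr4, with a mean of 54.8 ± 10.5 (SD, n = 24) in ad libitum controls. Ccl9, a macrophage chemokine, followed at 21.5 ± 3.72 and Il15ra, the receptor chain that presents interleukin-15, at 18.5 ± 6.82. Il11ra1 (16.6 ± 3.65), Il1r1 (13.9 ± 6.43), Il18 (12.3 ± 3.32), Il6ra (11.0 ± 4.26) and Il13ra1 (11.0 ± 2.76) completed the leading 8, and these neighbours overlapped in their spread.

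Kupffer cells had a different order. Ccl6, a myeloid CC chemokine, led with 601 ± 70.8 on the same scale (SD, n = 12), ahead of the B-cell attractant Cxcl13 at 495 ± 262. Lower levels were those of Il1b (161 ± 70.5), the shared interleukin-10 receptor chain Il10rb (121 ± 8.18), the eosinophil attractant Ccl24 (91.4 ± 14.2), Il1a (76.7 ± 14.5) and Il13ra1 (68.4 ± 6.23).

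In endothelial cells Il1a, an interleukin-1 receptor ligand, led at 120.5 ± 36.7 (SD, n = 12), and Il13ra1 (65.7 ± 7.03), the membrane-bound chemokine Cxcl16 (64.4 ± 3.71), Il10rb (62.1 ± 6.49) and Cxcl12 (60.5 ± 11.2) lay within each other's spread. Ccl6 (44.0 ± 12.8), Il4ra (28.8 ± 6.64) and Cxcl13 (27.5 ± 14.3) came next. As a description across separately normalised tables, Kupffer over endothelial ratios of control means were 13.6 for Ccl6, 17.997 for Cxcl13 and 23.8 for Il6ra, against 0.136 for Cxcl12 and 0.0324 for Il1r1, the signalling interleukin-1 receptor. Kupffer markers were present in the endothelial table, summing to 3994 to 18043 signal units, and their part in its myeloid chemokines was not tested.

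**Figure D1:**
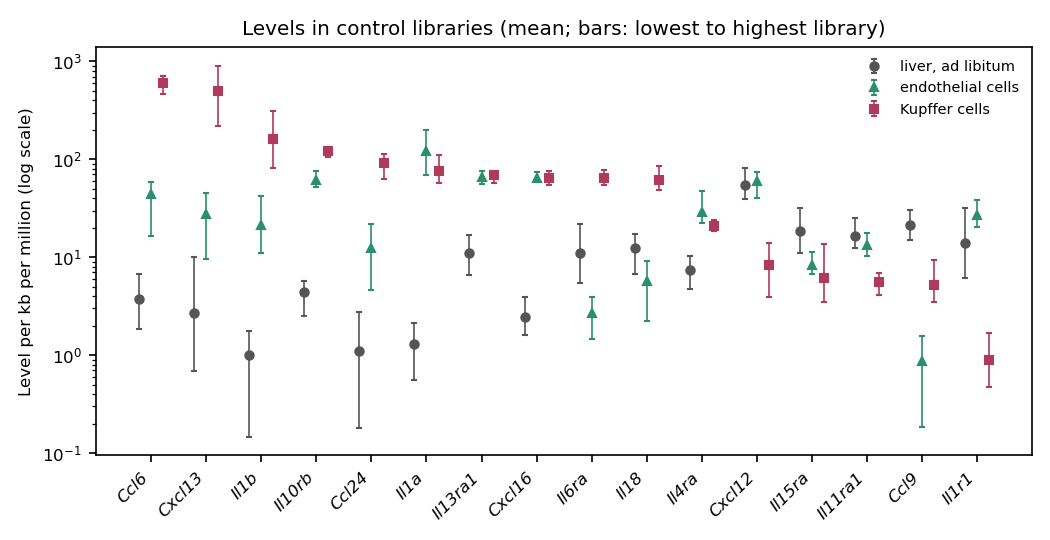
Level per kilobase of transcript, as parts of a fixed library total (log axis), of the members that led in liver, endothelial or Kupffer controls; symbols are means and bars run from the lowest to the highest library. Ccl6 and Cxcl13 are highest in Kupffer cells, while Cxcl12 is similar in liver and endothelial cells and lower in Kupffer cells.

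In liver, 10 of 37 tested members differed between knockouts and controls ad libitum (against 27.2% of all genes). Under reverse-phase feeding 12 of 47 did so (against 26.9%). Ad libitum 4 were higher and 6 lower, where 13.7% of all genes were higher and 13.5% lower. On the other schedule 4 were higher and 8 lower, where 12.7% of all genes were higher and 14.2% lower. Members were therefore called about as often as genes at large. Their median log2 difference was -0.04 ad libitum and 0.01 under reverse-phase feeding, beside -0.004 and -0.006 over all genes tested. The homeostatic chemokine Cxcl12 and the receptors Il17rb, Il15ra and Il20rb fell on both schedules, and the interferon-induced chemokine Cxcl10 and the receptor Il4ra rose on both. These 6 are 6 of the 10 ad libitum and 6 of the 12 reverse-phase calls, with the same direction on both, and the schedules share no libraries. The overlap of calls over all genes was not counted, so this overlap is not read as particular to the members. Of the 6, the Il20rb calls depended on the settings, as given with its values. In the deposited tables' mm9 annotation the transcripts counted span chr6:117118553-117131386 for Cxcl12, chr14:30809354-30822082 for Il17rb, chr2:11626920-11655612 for Il15ra, chr9:100358138-100386892 for Il20rb, chr5:92775665-92777915 for Cxcl10 and chr7:132695796-132722988 for Il4ra. Differences below are knockout minus control in fitted mean log2 expression over the day, by edgeR's quasi-likelihood test with Benjamini-Hochberg adjustment over all genes tested.

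Cxcl12 was the most abundant member and the one with the smallest p. It ran from 222 to 464 normalised CPM (median 300.5) in ad libitum controls and from 155 to 373 (median 222) in knockouts. At all 8 times the knockout mean was lower, and at 6 of them every knockout library lay below every control. The difference was -0.42 ± 0.07 (SE), adjusted p = 1.16e-06. Under reverse-phase feeding controls ran from 170 to 452 (median 294) and knockouts from 143 to 319 (median 195), lower again at all 8 times and without overlap at 5, with a difference of -0.53 ± 0.07 and adjusted p = 1.38e-08. In whole liver, fewer cells of a type and less RNA per cell cannot be told apart.

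Receptors fell beside it. Il17rb, the chain that binds interleukin-25, ran from 5.13 to 12.05 normalised CPM (median 7.81) in ad libitum controls and from 3.44 to 9.47 (median 5.72) in knockouts, a difference of -0.44 ± 0.08 (adjusted p = 2.21e-05). Under reverse-phase feeding its medians were 6.09 and 4.79, a difference of -0.46 ± 0.12 (adjusted p = 0.00323). Its groups overlapped in range, but at 4 of 8 times ad libitum and 3 of 8 on the other schedule every knockout library was below every control.

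Il15ra ran from 18.6 to 55.9 normalised CPM (median 26.5) in ad libitum controls and from 13.9 to 40.7 (median 21.9) in knockouts, with a difference of -0.35 ± 0.07 (adjusted p = 0.000206). The gap was widest near the control peak: at ZT 10 controls held 52.2 ± 3.87 and knockouts 34.3 ± 5.53 (SD, n = 3), without overlap. Under reverse-phase feeding the ranges were 17.0 to 34.2 and 12.7 to 27.6, and the difference was -0.20 ± 0.05 (adjusted p = 0.00198). Il20rb, a subunit of receptors for the interleukin-20 family, was near 1 CPM and fell by 0.45 and 0.37 on the log2 scale (adjusted p = 0.038 and 0.0409). With libraries left out 1 at a time, that call was lost for 12 of 48 libraries ad libitum and for 22 of 48 under reverse-phase feeding, with adjusted p up to 0.126 and 0.0825. Ad libitum it was also lost with DESeq2 (adjusted p = 0.0579), with time as a factor (0.0526) and with no filter on low counts (0.0536), and on the other schedule with no filter (0.0571).

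Of the members that rose, Cxcl10, a ligand of Cxcr3 that draws activated T cells, ran from 0.33 to 3.36 normalised CPM (median 1.51) in ad libitum controls and from 0.30 to 5.03 (median 2.61) in knockouts. Its mean was higher in knockouts at all 8 times, and the difference was 0.71 ± 0.18 (adjusted p = 0.00218). Under reverse-phase feeding it rose by 0.80 ± 0.23 (adjusted p = 0.00695), with medians of 1.87 and 2.61 and a higher knockout mean at 7 of 8 times. A single knockout library carried part of that: replicate 3 at ZT 10 held 19.4 normalised CPM against 2.29 and 1.46 in the other two, and without it the difference was 0.50 (adjusted p = 0.0209).

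Il4ra, the receptor chain shared by interleukin-4 and interleukin-13, rose less, by 0.16 ± 0.05 ad libitum (adjusted p = 0.00829) and 0.20 ± 0.05 under reverse-phase feeding (adjusted p = 0.00118). Its medians were 39.4 normalised CPM in controls and 43.4 in knockouts ad libitum, and 28.4 and 33.0 on the other schedule, with wide overlap. Ad libitum the knockout mean was higher at 4 of 8 times and lower at 4, so the rise of the daily mean was not seen throughout the day. Under reverse-phase feeding the knockout mean was higher at all 8 times.

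**Figure D2:**
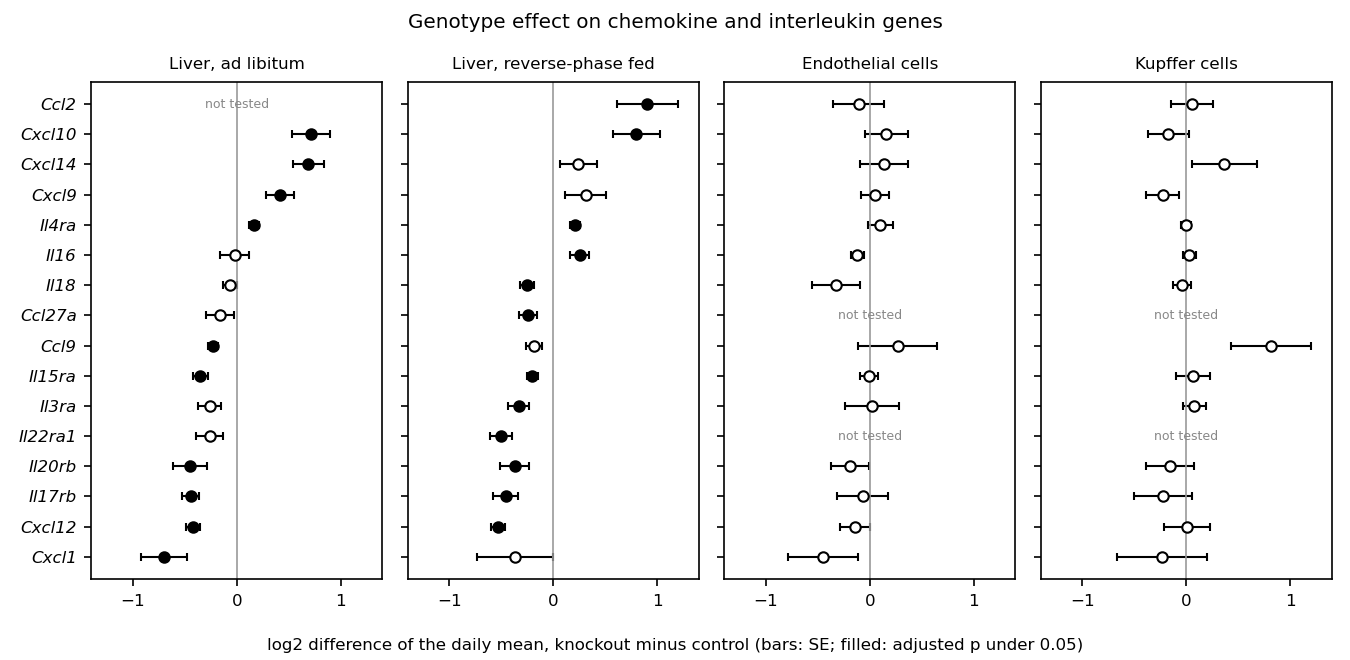
Knockout minus control difference of the daily mean (log2, bars are SE) of the 16 members called in either liver table, in all 4 tables; filled symbols passed adjusted p under 0.05. Cxcl12, Il17rb, Il15ra and Il20rb are lower and Cxcl10 and Il4ra higher in both liver tables, and no symbol is filled in endothelial or Kupffer cells.

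Ad libitum, 4 further members changed. Cxcl14, a chemokine of epithelia, ran from 0.307 to 1.63 normalised CPM (median 0.838) in controls and from 0.662 to 2.33 (median 1.46) in knockouts, a rise of 0.68 ± 0.15 (adjusted p = 0.00033) with a higher mean at 7 of 8 times. Ccl9 ran from 45.9 to 93.5 (median 64.3) in controls and from 36.6 to 87.5 (median 55.1) in knockouts, and its mean fell by 0.23 ± 0.05 (adjusted p = 0.000366). Taken over the whole day, both genes overlapped widely between genotypes. For Cxcl14 every knockout library lay above every control at 3 of 8 times. For Ccl9 every knockout library lay below every control at 4 of 8 times and above every control at 1. Cxcl9, another Cxcr3 ligand, rose by 0.42 on the log2 scale. Cxcl1, a neutrophil attractant, fell by 0.70 on the log2 scale. Control replicate 3 at ZT 4 reached 39.6 normalised CPM of Cxcl1 where the other two held 3.10 and 5.23, and without it Cxcl1 fell by 0.44 (adjusted p = 0.0249).

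Under reverse-phase feeding, 6 further members changed. Il22ra1, the receptor chain through which hepatocytes sense interleukin-22, fell by 0.50 ± 0.11 (adjusted p = 0.000325). It ran from 4.83 to 26.2 normalised CPM (median 10.4) in controls and from 2.72 to 14.4 (median 8.13) in knockouts, and its knockout mean was lower at all 8 times. Il18, an interleukin-1 family cytokine, ran from 6.66 to 14.7 (median 10.8) in controls and from 6.08 to 13.3 (median 8.58) in knockouts. It fell by 0.26 ± 0.07 (adjusted p = 0.00302), with a lower mean at all 8 times. Il3ra and Ccl27a fell by 0.33 and 0.25, and Ccl2, the monocyte attractant, and Il16 rose by 0.90 and 0.25 on the log2 scale. Ccl2 lost its call without knockout replicate 3 at ZT 10 (adjusted p = 0.0591), and with libraries left out 1 at a time Il16 lost it for 20 of 48 and Ccl27a for 13 of 48, with adjusted p up to 0.0779 and 0.0692. With no filter on low counts both missed the threshold (adjusted p = 0.0502 for each), as did Il16 with time as a factor (0.0688), and with the longest transcript Ccl27a was at 0.03 (adjusted p = 0.907).

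That library also had the widest spread around its group of the reverse-phase libraries, taken over all genes tested. At 2.81 median absolute deviations it lay just under the limit of 3. The count that follows has no share over all genes beside it, so it is not read as particular to the members. Of the 47 members, 15 had their highest knockout value in reverse-phase-fed knockout replicate 3 at ZT 10, among them Ccl2, Ccl5, Cxcl1, Cxcl9, Cxcl10, Il1b and Il1rn. Cxcl9 was at 35.2 normalised CPM there and at 6.48 and 6.12 in the other two libraries, and Ccl2 at 3.50 against 0.667 and 0.32. Its summed lymphocyte markers were 13.7 normalised CPM against 4.86 and 5.43, while its summed Kupffer markers, at 388, lay between 312 and 438. The part of other cell types in these values was not tested.

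No member was called for a difference between schedules in the genotype effect (0 of 45 in the joint edgeR fit, 0 at unadjusted p under 0.05, against 0.207% of all genes). A call on a single schedule, as for Cxcl14 or Il22ra1, is not a shown difference between schedules. Of 15 members called on either schedule and tested on both, 14 had the same sign on both. The same share was not counted over all genes, and these members were picked by their calls on the same schedules.

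Markers of other liver cells moved with the genotype too. Of all genes 13.7% were higher and 13.5% lower ad libitum, and 12.7% and 14.2% with reversed feeding. In whole liver 9 of 9 stellate markers and 9 of 11 endothelial markers rose ad libitum, and 7 of 9 and 4 of 11 did so with reversed feeding, while 0 of 11 Kupffer markers passed on either schedule. Of hepatocyte markers 4 of 10 rose and 1 fell ad libitum, and 2 rose and 1 fell with reversed feeding. Their sums had medians of 149452 normalised CPM in controls and 132206 in knockouts ad libitum, and 131543 and 116327 on the other schedule, with overlapping ranges. Of neutrophil and monocyte markers 1 of 4 fell ad libitum and 1 of 5 with reversed feeding, of cholangiocyte markers 1 of 5 and 1 of 6 rose, and of dendritic cell markers 0 of 3 and 0 of 4 passed. Summed stellate markers ran from 186 to 419 normalised CPM in controls and 255 to 537 in knockouts ad libitum, and summed endothelial markers from 135 to 324 and 165 to 333. Il1r1, also found in endothelial cells, was picked here after its values were seen. It differed by 0.08 ± 0.14 ad libitum and 0.24 ± 0.14 under reverse-phase feeding without passing. Its endothelial over ad libitum liver ratio was 1.96, below that of other members such as Il1a (92.1) and Il16 (48.4). Endothelial over ad libitum liver ratios of control means per kilobase describe separately normalised tables. Of members that rose ad libitum, the ratios were 15.6 for Cxcl10, 8.57 for Cxcl9, 5.18 for Cxcl14 and 3.87 for Il4ra. Of those that fell, they were 3.82 for Il20rb, 1.10 for Cxcl12 and 0.44 for Il15ra. For Il17rb, Cxcl1 and Ccl9, which also fell, they were 0.34, 0.27 and 0.04. Kupffer over ad libitum liver ratios were 15.9 for Cxcl10, 6.59 for Cxcl9, 11.5 for Cxcl14 and 2.78 for Il4ra. Of those that fell, they were 2.95 for Il20rb, 0.15 for Cxcl12, 0.33 for Il15ra, 0.20 for Il17rb, 0.21 for Cxcl1 and 0.24 for Ccl9. A similar order was thus found in both cell types, and it is not particular to endothelial cells. Lymphocyte markers were near 0, with 11 of 12 below a mean of 1 normalised CPM ad libitum, where 1 of 3 tested fell, and 0 of 12 passed on the other schedule. The part of cell composition in the called members was not tested.

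Genes that work beside the members were read from 4 lists. Of all genes 27.2% were called for genotype ad libitum and 26.9% with reversed feeding. The lists' shares were not tested against these, and the genes named are not read as a result about a pathway. Of receptor partners and decoys, 1 of 11 tested rose and 2 fell ad libitum (list median 0.13), among them the interleukin-1 receptor accessory chain Il1rap (-0.13) and the scavenging receptor Ackr4 (-0.21). On the other schedule the counts were 2 of 13 higher and 2 lower (median 0.13), with Ackr4 at -0.21 and Il12rb1, a chain of the interleukin-12 receptor, at 0.68. Of JAK-STAT genes 1 of 16 rose and 2 fell ad libitum (median -0.08) and, with food reversed, 2 of 18 were higher and 2 lower (median -0.07). On both schedules Stat6, which acts downstream of Il4ra, fell by 0.30 on the log2 scale. Of interleukin-1 and NF-kappaB genes 0 of 21 rose and 4 fell ad libitum (median -0.05), and 3 rose and 4 fell on the other schedule (median -0.03). The inhibitor Nfkbia was at -0.30 and -0.29, Nfkbiz, an atypical member of its family, at -0.44 ad libitum and Tollip, which binds interleukin-1 receptor complexes, at -0.11 under reverse-phase feeding. Of cytokines outside the name pattern, Csf1, the macrophage growth factor, fell by 0.27 and 0.35 and was the 1 gene to pass of 6 and of 9 tested (medians 0.01 and -0.07). In endothelial and Kupffer cells 0 genes of these lists passed.

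In isolated cells no member passed for genotype: 0 of 42 in endothelial cells and 0 of 46 in Kupffer cells by limma, with 3 at unadjusted p under 0.05 in each, against 0.0319% and 0.0244% of all genes called. Of all genes, 0.024% were higher and 0.00799% lower in endothelial cells, and 0.0163% and 0.00815% in Kupffer cells. Cxcl12 differed by -0.14 ± 0.15 in endothelial and 0.01 ± 0.22 in Kupffer cells, which does not show that it was unchanged there. Il15ra differed by -0.01 ± 0.09 and 0.06 ± 0.16.

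Many members were rhythmic over the day in liver. In controls 19 of 37 members (51.4%) were rhythmic ad libitum, against 48.1% of all genes, and 19 of 47 (40.4%) under reverse-phase feeding, against 41.2%. In knockouts the counts were 19 of 37 (51.4%, against 44.1%) and 12 of 47 (25.5%, against 36.8%). In reverse-phase-fed knockouts the members' share lay below that of all genes, and no difference in share was tested. Of the rhythmic members, 14 were rhythmic in both genotypes ad libitum and 10 under reverse-phase feeding. A rhythm is a joint test of a cosine and a sine term with a 24-h period, and the peak-to-trough ratio is that of the fitted curve.

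Among ad libitum controls Il15ra had the smallest p, with a peak at ZT 10.1 ± 0.43 (SE) and a peak-to-trough ratio of 2.45 (adjusted p = 2.28e-09). Il4ra peaked at ZT 23.8, Il18 at ZT 7.15, Il17ra, the common interleukin-17 receptor chain, at ZT 11.1 and Il1rn at ZT 6.70. Il1rn swung most of these, 6.67-fold, from 0.257 ± 0.231 normalised CPM at ZT 16 to 3.36 ± 0.75 at ZT 7 (SD, n = 3). Il18 swung 1.90-fold, Il4ra 1.62-fold and Il17ra 1.55-fold.

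In ad libitum knockouts Ccl9 led, with 80.4 ± 6.19 normalised CPM at ZT 22 and 41.2 ± 4.51 at ZT 10, a ratio of 1.88 and a peak at ZT 0.282 (adjusted p = 3.67e-09). Il1r1 (3.56-fold, peak ZT 10.4), Il6ra (2.44-fold, ZT 13.9), Il15ra (1.80-fold, ZT 9.54) and Il18 (1.59-fold, ZT 5.72) followed.

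Under reverse-phase feeding Il11ra1 led in controls (1.80-fold, peak ZT 10.8), followed by Il15ra (1.58-fold, ZT 21.3), Cxcl12 (1.79-fold, ZT 5.07), Cxcl11, another Cxcr3 ligand (2.54-fold, ZT 4.35), and Il17ra (1.51-fold, ZT 20.9). In knockouts Il15ra (1.73-fold, ZT 20.4), Il11ra1 (1.67-fold, ZT 10.7), Il22ra1 (2.74-fold, ZT 22.4), Il17ra (1.63-fold, ZT 20.5) and Ccl9 (2.01-fold, ZT 15.0) led. Il15ra, Il11ra1 and Il17ra were thus among the leading 5 in both genotypes. Control Cxcl1 had a ratio of 10.2 there, and its libraries at ZT 16 held 59.1, 117 and 4.31 normalised CPM.

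The rhythm itself differed between genotypes for 2 of 37 members ad libitum, Ccl9 (adjusted p = 0.0153) and Il4ra (adjusted p = 0.0466), against 3.31% of all genes. Ccl9 in controls swung 1.35-fold with its peak at ZT 2.75, between 75.5 ± 15.7 normalised CPM at ZT 4 and 55.4 ± 10.01 at ZT 13. The fitted knockout curve had a wider swing (1.88-fold) and an earlier peak (ZT 0.282), but neither was tested on its own. With reversed feeding the fitted Ccl9 peaks were at ZT 13.5 in controls and ZT 15.0 in knockouts. Il4ra swung 1.62-fold in controls and 1.26-fold in knockouts. At ZT 7 it held 32.7 ± 4.44 normalised CPM in controls and 47.5 ± 1.71 in knockouts, and at ZT 10 29.6 ± 3.93 and 43.1 ± 3.51, without overlap at either time, whereas at ZT 1 the means were 45.6 and 44.2. With libraries left out 1 at a time, the Il4ra call was lost for 28 of 48 (adjusted p up to 0.0964). It was also lost with DESeq2's size factors, no filter on low counts, 10 counts in 3 libraries, the longest transcript and without the libraries that stood apart (adjusted p = 0.051 to 0.079). The Ccl9 call was lost for 0 of 48, though it was lost with time as a factor. Under reverse-phase feeding no rhythm difference passed (0 of 47 by edgeR and by DESeq2, 3 at unadjusted p under 0.05, against 1.48%).

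**Figure D3:**
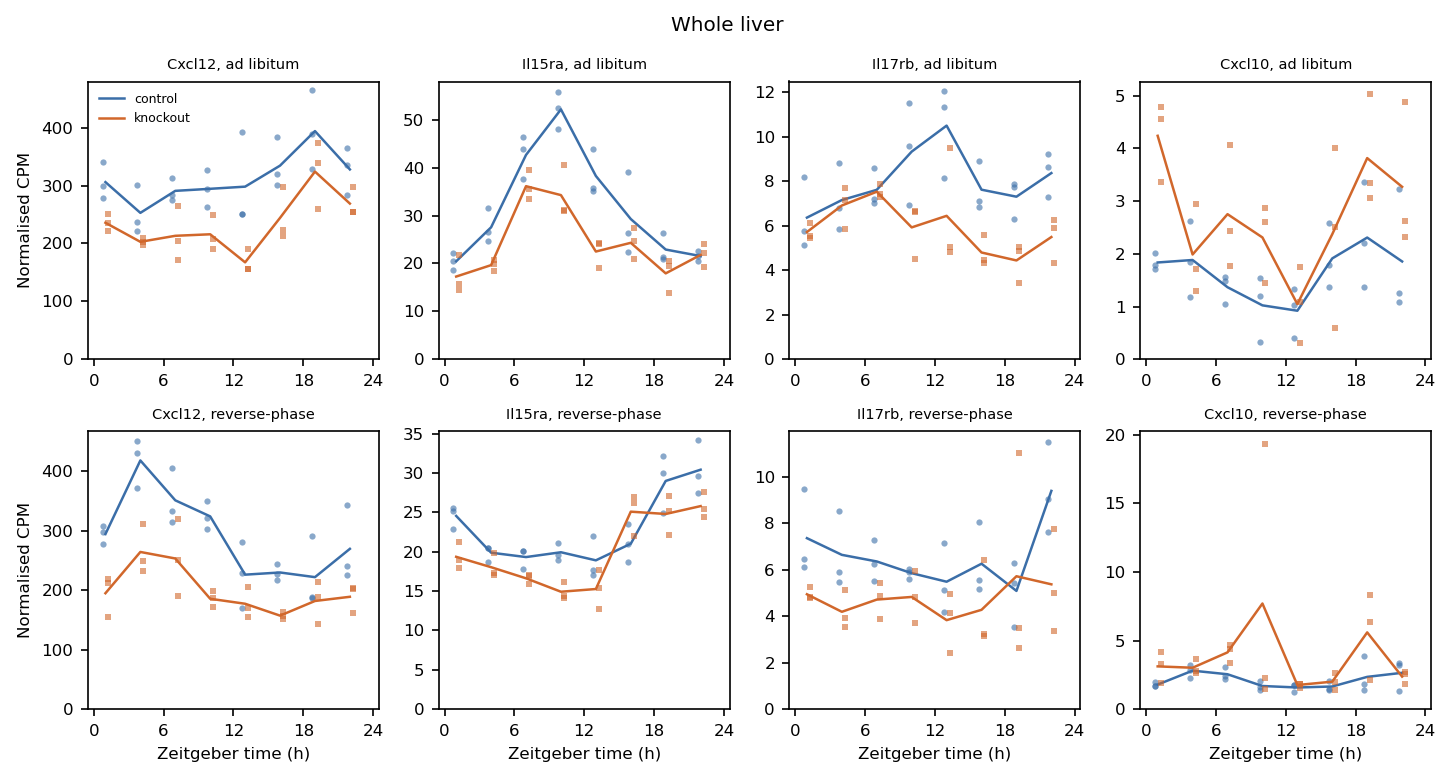
Normalised CPM of Cxcl12, Il15ra, Il17rb and Cxcl10 against zeitgeber time in whole liver (points are libraries, lines are means of 3; controls blue, knockouts orange; upper row ad libitum, lower row reverse-phase feeding). Cxcl12 is lower in knockouts at all 8 times on both schedules, the Il15ra peak moves from ZT 10 to ZT 22, and 1 reverse-phase-fed knockout library at ZT 10 stands at 19.4 for Cxcl10.

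Control rhythms were compared between the feeding schedules in the joint fit. They differed for 19 of 45 members, a smaller share than the 53.6% of all genes, and this difference in share was not tested. Of 37 members tested on both schedules 13 were rhythmic on both, against 26.4% of 12488 genes. Of these 13, 9 peaked at least 8 h apart round the clock, with a median distance of 10.3 h and a range of 1.23 to 11.7 h. Among the 3293 genes rhythmic on both schedules in controls, 2454 (74.5%) peaked at least 8 h apart, with a median distance of 9.72 h. The members' shares were not tested against those of all genes. Each schedule's table was sequenced to its own depth, and other differences between the tables cannot be told apart from feeding.

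Il15ra had the smallest p (adjusted p = 5.04e-15): its peak lay at ZT 10.1 ± 0.43 ad libitum and at ZT 21.3 ± 0.58 under reverse-phase feeding. At ZT 10 controls held 52.2 ± 3.87 normalised CPM ad libitum and 19.9 ± 1.12 under reverse-phase feeding. The interleukin-11 receptor Il11ra1 moved from ZT 23.2 ± 0.67 to ZT 10.8 ± 0.46 (adjusted p = 2.5e-13). Its highest control means were 38.7 ± 7.25 at ZT 1 ad libitum and 43.3 ± 3.20 at ZT 7 under reverse-phase feeding, and its lowest 23.1 ± 1.51 at ZT 10 and 25.002 ± 4.25 at ZT 22. These receptors thus stood nearly opposite each other in time on both schedules.

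Il17ra moved from ZT 11.1 to ZT 20.9 (adjusted p = 4.55e-09). Cxcl12 moved from ZT 18.4 ± 1.17 to ZT 5.07 ± 0.60 (adjusted p = 1.1e-07), and its peak-to-trough ratio was 1.34 ad libitum and 1.79 under reverse-phase feeding. Il1rn moved from ZT 6.70 to ZT 20.4 (adjusted p = 1.52e-07) with ratios of 6.67 and 4.16. Peaks of Il1a, at ZT 23.4 and ZT 0.592, were 1.23 h apart, and Il1a was not called for a difference. Il6ra, Cxcl14, Il1r1, Il17rb and Il10rb were called too but lost the call on leaving out at least 1 of the 3 replicate numbers.

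In knockouts 7 of the 37 members tested on both schedules were rhythmic on both, against 22.3% of 12488 genes. Of these 7, Il11ra1 (ZT 22.8 and ZT 10.7), Il17ra (ZT 8.33 and ZT 20.5), Il15ra (ZT 9.54 and ZT 20.4) and Ccl9 (ZT 0.282 and ZT 15.0) again peaked at least 8 h apart. Among all genes 1931 of 2783 (69.4%) did so in knockouts, with a median distance of 9.41 h. Within a schedule the genotypes' peaks lay a median of 2.41 h apart ad libitum (14 members) and 0.748 h apart under reverse-phase feeding (10 members).

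**Figure D4:**
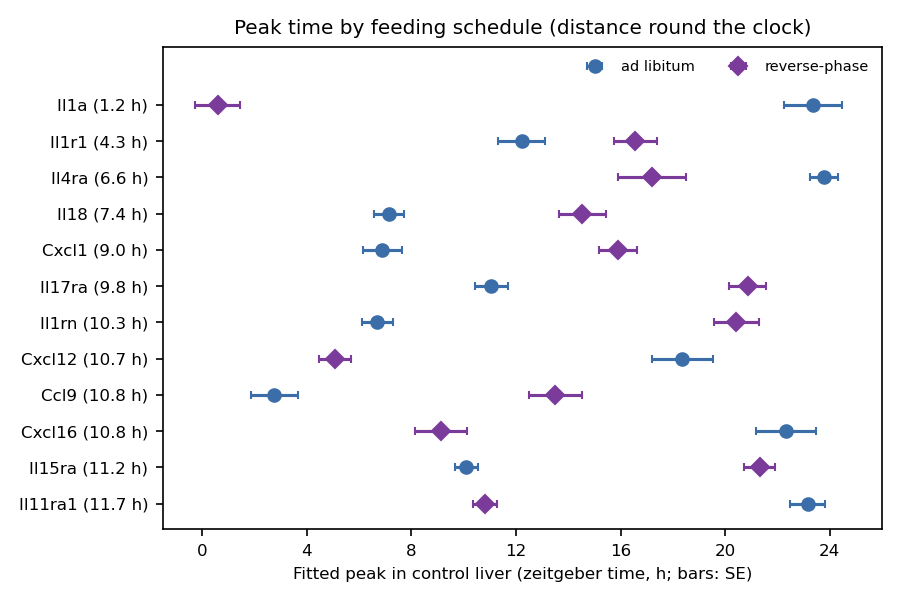
Fitted peak time in control liver (zeitgeber time, h; bars are SE) of 12 members rhythmic on both schedules, ad libitum as circles and reverse-phase as diamonds, with the distance round the clock beside each name. Il15ra lies 11.2 h apart, Il11ra1 11.7 h and Il1a 1.23 h.

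Kupffer cells had 3 rhythmic members in controls (of 46, against 1.96% of all genes), and the same 3 were rhythmic in knockouts (against 1.81%). Cxcl13 peaked at ZT 20.5 ± 0.60 in control and ZT 22.1 ± 0.80 in knockout Kupffer cells, with ratios of 3.41 (adjusted p = 0.00575) and 2.52 (adjusted p = 0.0387). At ZT 22 the controls held 4489, 4452 and 4627 signal units and the knockouts 2254, 3101 and 3075, without overlap, but neither the genotype effect nor the rhythm difference was called (0 of 46 rhythm differences by limma, 1 at unadjusted p under 0.05, against 0% of all genes). With libraries left out 1 at a time, the knockout rhythm lost its call for 11 of 24 (adjusted p up to 0.12), and it was lost without the libraries that stood apart (0.0755). Il1rn peaked at ZT 4.04 in controls and ZT 5.37 in knockouts (adjusted p = 0.006 and 0.00467), from 109 ± 5.63 signal units at ZT 16 to 252 ± 30.2 at ZT 4 in controls (SD, n = 3). Its control call was lost without the libraries that stood apart, which are all at ZT 4 (adjusted p = 0.0533 by limma). The same call was lost with time as a factor and ZT 4 left out, a setting chosen after seeing the data (adjusted p = 0.309).

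In endothelial cells Cxcl13 was rhythmic in controls (1 of 42, against 6.13%), and Il1rn, Il11ra1, Cxcl9 and Il10rb in knockouts (4 of 42, against 13.2%). Endothelial Cxcl13 held 157 to 197 signal units at ZT 16 in controls and 54.4 to 69.8 in knockouts, and its rhythm difference was not called (0 of 42 passed by limma, 9 at unadjusted p under 0.05, against 2.04%). Mean summed Kupffer markers at that time were 13702 signal units in control and 9718 in knockout endothelial libraries. Il1rn ran from 6.24 ± 0.607 signal units at ZT 16 to 30.9 ± 3.43 at ZT 10 in knockouts (adjusted p = 0.000777). The Il10rb call was lost on leaving out each of 4 libraries in turn, knockout replicates 1 and 3 at ZT 10, 1 at ZT 16 and 2 at ZT 22 (adjusted p up to 0.0817), with time as a factor (0.0619) and without the libraries that stood apart (0.0726).

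**Figure D5:**
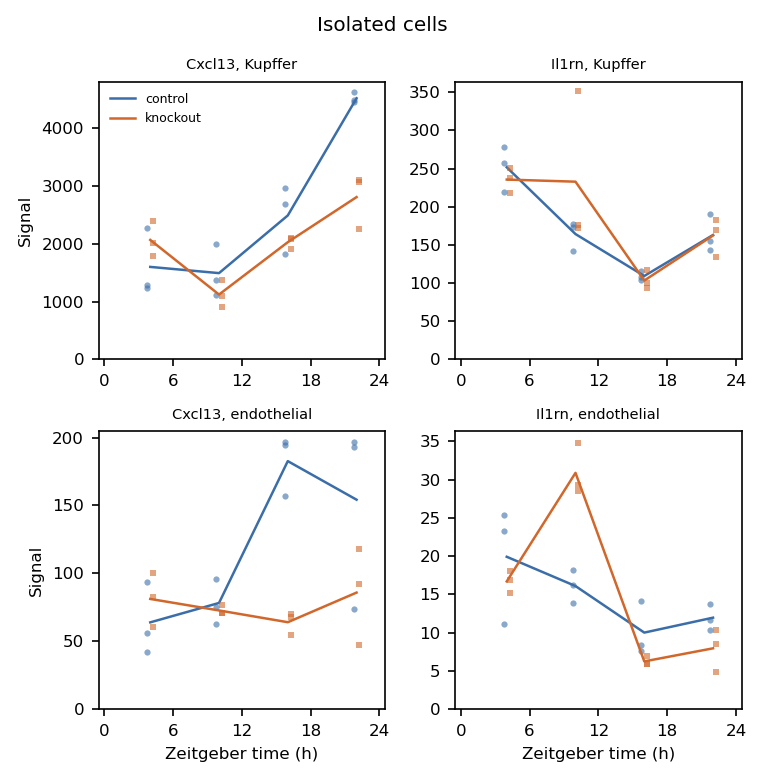
Signal of Cxcl13 and Il1rn against zeitgeber time in isolated Kupffer (upper row) and endothelial cells (lower row); points are libraries, lines are means of 3, controls blue and knockouts orange. Kupffer Cxcl13 rises to 4452 to 4627 at ZT 22 in controls and 2254 to 3101 in knockouts, and Kupffer Il1rn is lowest at ZT 16 in both genotypes.

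Single Kupffer libraries held extreme values. In knockout replicate 2 at ZT 10, 9 of 46 members had their highest knockout value. These were Ccl3, Ccl22, Cxcl1, Cxcl2, Il1a, Il1b, Il6, Il10 and Il1rn. The share of all genes with their highest knockout value in that library was not counted, so the count is not read as particular to the members. Il1b was at 2254 signal units there and at 770 and 535 in the other replicates. In knockout replicate 1 at ZT 22 Ccl6 was at 9342 signal units against 3160 and 4008, and Ccl9 at 1207 against 65.6 and 89.6. Neither library was among those that stood apart. Il1rn is among these genes, and its knockout call held with each library left out in turn (adjusted p up to 0.0344).

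Patterns most like 4 members a schedule were sought over 16 group means of log2 CPM, as a description. Il15ra moved most like Xylb, Iffo1 and Ric8 ad libitum (r = 0.98, 0.95 and 0.94) and like Npc1, Sun2 and Slc25a42 under reverse-phase feeding (r = 0.95, 0.94 and 0.93). Cxcl12 moved most like Acot4, Pcyt1a and Wwc1 ad libitum (r = 0.94, 0.92 and 0.91) and like Gas2l3, Wnt5b and Acot4 on the other schedule (r = 0.95, 0.94 and 0.93). Il17rb had r up to 0.90 with Mup16, one of a family of near-identical genes whose reads can be split, Cxcl14 up to 0.88 with Ier5, Il22ra1 up to 0.93 with Coro7 and Il4ra up to 0.91 with Tmem51os1.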

How the data were processed

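RNA of 144 libraries in 4 tables was used, with groups taken from the labels. Per the labels' protocols, Trizol and column extraction preceded TruSeq library preparation. STAR, HOMER and mm9 appear in the submitters' processing notes, without versions. The deposited liver tables hold expected counts per transcript in steps of 0.5. The authors' endothelial and Kupffer tables hold signal values already normalised so that each library has the same set of values, so real differences in total RNA are removed and depth is unknown.

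The members and the lists were chosen with earlier results of these data known. Per symbol the transcript row with the largest mean share over all tables was kept; 16 members had more than 1 row, and another row was largest for 3 members ad libitum, 2 under reverse-phase feeding, 4 in endothelial and 1 in Kupffer cells. Liver counts were rounded and tested with edgeR 4.0.16 (TMM, filterByExpr, robust quasi-likelihood F test); cell values were tested with limma 3.58.1 (trend, robust) on log2(value + 1), for genes that reached 10 in 3 libraries, so fold changes of low genes are understated. Both ran in R 4.3.3. The model had genotype and, per genotype, a cosine and sine of 24 h; p-values were adjusted over all genes tested, with a threshold of 0.05. A joint fit of both liver tables tested the genotype effect and the control rhythm by schedule. SE values of peaks are approximate, from the F statistic. The procedure was tested on simulated data. Named members are those called, in full for up to 6 per table (5 for rhythms), by a written rule.

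Within a table, deviations of same-numbered control and knockout libraries were correlated. The median was -0.006 ad libitum, 0.03 under reverse-phase feeding, 0.02 in endothelial and 0.04 in Kupffer cells, and no block was used in the tests. Single pairs ran from -0.19 to 0.22, -0.30 to 0.35, -0.26 to 0.19 and -0.36 to 0.42 in that order. Pairing at single times cannot be judged from the median. These correlations cover pairs within a table only. Same-labelled endothelial and Kupffer libraries moved together in hepatocyte markers (r = 0.92, 24 pairs), and no fit joins those tables. Alternatives were DESeq2 1.42.0, its size factors, other filters, the longest transcript, time as a factor, a fold minimum, a replicate block and leaving out libraries. Results for some genes are not reported here; counts over all members include them.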

Additional observations from a re-analysis of the deposited data

Results flagged for a closer look

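The 24-h rhythm in control liver differed between ad libitum and reverse-phase feeding, by a test of the difference itself, for 19 of 45 members. The adjusted p-values by edgeR's quasi-likelihood test were 5.04e-15 for Il15ra, 2.5e-13 for Il11ra1, 4.55e-09 for Il17ra, 1.1e-07 for Cxcl12 and 1.52e-07 for Il1rn. For Il18 it was 2.86e-07, for Cxcl1 8.74e-07, for Il4ra 1.15e-06 and for Ccl9 1.48e-05. Il13ra1 followed at 2.73e-05, Cxcl16 at 4.24e-05, Cxcl11 at 0.000121 and Ccl6 at 0.00321. The weakest were Il6ra at 0.0049, Cxcl14 at 0.0155, Il1r1 at 0.0173, Il17rb at 0.0179 and Il10rb at 0.0342. The Il10rb call was lost with DESeq2's size factors, with no filter on low counts, with 10 counts in 3 libraries and without the libraries that stood apart (adjusted p = 0.0546 to 0.0783). Of all genes tested 53.6% were called in the same comparison. The ad libitum liver rhythm differed between genotypes, by the same kind of test, for Ccl9 (adjusted p = 0.0153) and Il4ra (adjusted p = 0.0466).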

How the results depend on the processing

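With a fold minimum of 1.5, 3 members were called for genotype ad libitum and 2 under reverse-phase feeding, in place of 10 and 12. The 2 rhythm differences ad libitum became 1 with DESeq2's size factors, with no filter, with 10 counts in 3 libraries, with the longest transcript, with time as a factor and without the libraries that stood apart. Without those libraries endothelial control rhythms rose from 1 to 3 and rhythm differences from 0 to 1. Ccl27a under reverse-phase feeding turned to 0.0263 with the longest transcript (adjusted p = 0.907); the cause was not tested. No reverse-phase library stood apart, so that alternative gave no value there.

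Leaving out each library in turn gave 9 to 11 genotype calls ad libitum (10 to 12 with reversed feeding), 17 to 21 and 17 to 23 control rhythms, 17 to 20 and 10 to 14 knockout rhythms, and 1 to 3 and 0 to 0 rhythm differences. In endothelial cells the ranges were 0 to 0 genotype calls, 1 to 3 control rhythms, 3 to 7 knockout rhythms and 0 to 3 rhythm differences, and in Kupffer cells 0 to 0, 3 to 4, 1 to 3 and 0 to 0. Without each replicate number the joint fit gave 0 to 0 genotype effects by feeding and 15 to 20 control rhythms by feeding. In Kupffer cells time as a factor gave 0 genotype calls, 3 control and 4 knockout rhythms, and time as a factor without ZT 4, chosen after seeing the data, gave 0, 2 and 4.

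With a replicate block, liver genotype calls numbered 10 (ad libitum) and 12 (reversed feeding), and the endothelial rhythm difference went from 0 to 1; the labels state no pairing. Low depth limits members near 1 CPM.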
